A study of Drosophila melanogaster with 8 samples.

Results

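The 8 ovary arrays of an otefin (ote) mutant study were set against each other in a grouping that differs from the deposited labels at 2 arrays. The arrays labelled het 2, null 1, null 2 and null 3 form the het 2 side, and those labelled null 4, het 1, het 3 and het 4 form the null 4 side. This grouping was chosen by the measured values themselves, after they had been seen, as a candidate exchange of the labels het 2 and null 4. No p-value is therefore given between the sides, and every difference between them is a description. All 8 arrays of the series take part, 4 on each side, and 6 of them keep the place their labels give them. Whether the labels were exchanged was not tested.

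Each array holds RNA of about 100 pairs of ovaries pooled from virgin females, 4 to 6 h after eclosion per the labels (the methods give 1 day). The 4 samples labelled null were ote mutant on both second chromosomes, with the genotypes otefinPk, Chk2P30 / otefinG (null 1 and null 2) and otefinPk, Chk2P6 / otefinG (null 3 and null 4). The 4 labelled het had 1 mutant chromosome over the balancer CyO, as otefinPk, Chk2P30 / CyO (het 1 and het 2) and otefinPk, Chk2P6 / CyO (het 3 and het 4). Every female therefore lacked 1 copy of chk2, the gene lok, and the methods place the allele oteB279G, not otePK, on the P30 chromosome. The het 2 side holds 3 arrays of the P30 and 1 of the P6 background, the null 4 side 1 of P30 and 3 of P6. Changes limited to the few germline stem cells would be diluted in whole ovaries.

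Otefin is an emerin-like LEM domain protein that lies under the inner nuclear membrane and is needed to keep germline stem cells, and Chk2 is a kinase of the DNA damage checkpoint. A balancer chromosome such as CyO carries several inversions that suppress recombination with its homologue, so it keeps its own set of alleles along the whole second chromosome. Females with CyO and females without it can thus differ in the alleles of many second chromosome genes besides ote.

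Signals were log2 values normalized by the authors with RMA, and array medians lay between 5.61 and 5.72. A probe set was said to part the sides where all 4 arrays of one side lay above all 4 of the other and the side means differed by at least 1 on the log2 scale, that is 2-fold. Of 18769 probe sets, 91 parted the sides with the het 2 side higher (0.485% of all) and 25 with it lower (0.133%). Without the limit on size, the sides did not overlap at 768 probe sets (4.09%). Since the values chose the grouping, these shares say nothing about chance. The sizes of the 116 ranged from 1.00 to 5.14 on the log2 scale, with a median of 1.24, and 19 had a mean signal under 5 on their lower side. No detection call was used here, so a signal that low is not shown to be above background, and no fold is given against it. The probe set just inside the size limit was that of Camta, a calmodulin-binding transcription activator (difference of -1.001), and the one just outside was that of Cda4, a chitin deacetylase (0.998).

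By the deposited labels, with null set against het, the same call was met by 2 probe sets higher (0.0107%) and 2 lower (0.0107%). Between the chk2 backgrounds, P30 against P6, it was met by 33 higher (0.176%) and 124 lower (0.661%), so more probe sets parted the backgrounds than the sides. The groupings also differed in the distance between the arrays nearest each other. At 8 probe sets every array of one side was at least 2-fold from every array of the other. For null against het 0 probe sets met this, and 0 for P30 against P6. Only the sides were chosen on these values, so this contrast is a description and no support for the sides. For null against het, 0 probe sets passed 0.05 in limma after Benjamini-Hochberg adjustment (423 before it), and 0 in the test the methods name (586 before adjustment).

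The widest separations were at 3 genes that were much higher in the het 2 side. Cyp4p2, a cytochrome P450 gene on 2R, had log2 signals of 10.53 in het 2, 9.86 in null 1, 10.24 in null 2 and 9.47 in null 3, against 4.61 in null 4, 4.54 in het 1, 4.63 in het 3 and 5.76 in het 4. The lowest array of the het 2 side stood 3.71 above the highest of the null 4 side, and the means differed by 5.14 (standard error 0.37). CG8160, a 2R gene with only a CG number, had 9.73, 8.57, 9.47 and 8.41 in het 2 and null 1 to 3, against 3.81 in null 4 and 4.02, 4.12 and 4.71 in het 1, het 3 and het 4. Its means differed by 4.88 (standard error 0.38). Ror, a receptor tyrosine kinase gene on 2L best known from neurons, had 12.93, 12.62, 12.80 and 12.24 in het 2 and null 1 to 3, against 6.75 in null 4 and 7.38, 7.23 and 8.85 in het 1, het 3 and het 4. The means of Ror differed by 5.10 (standard error 0.48), 34.2-fold, with 3.39 between the nearest arrays. In all 3 genes het 2 was the highest of the 8 arrays, and null 4 was below at least 2 of the arrays labelled het.

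**Figure D1:**
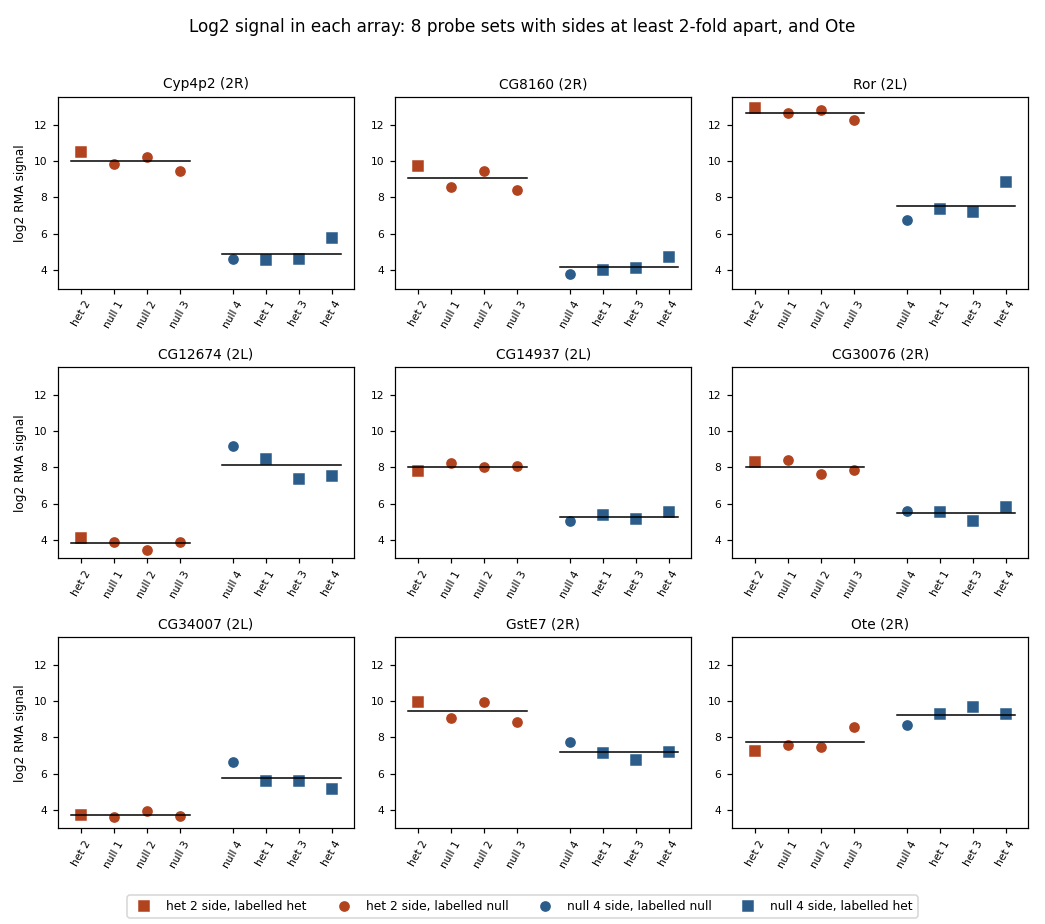
Log2 RMA signal (y axis) in each of the 8 arrays (x axis) for the 8 probe sets whose sides lie at least 2-fold apart and for Ote. Squares are arrays labelled het, circles arrays labelled null, red the het 2 side, blue the null 4 side, and lines the side means (n = 4 each). The sides do not overlap in any panel, with 3.71 between the nearest arrays for Cyp4p2 and only 0.10, between null 3 and null 4, for Ote.

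CG12674, on 2L, had the widest separation in the other direction. It stood at 4.11, 3.92, 3.48 and 3.92 in het 2 and null 1 to 3, against 9.18 in null 4 and 8.45, 7.35 and 7.55 in het 1, het 3 and het 4. Its means differed by -4.28 (standard error 0.44). CG34007, also on 2L, lay between 3.60 and 3.96 in the het 2 side, against 5.18 to 6.64 in the null 4 side, where null 4 was the highest (means of 3.75 and 5.75, standard error of the difference 0.32). CG14937, on 2L, had 7.81 to 8.25 in the het 2 side, against 5.07 to 5.56 in the null 4 side (difference of 2.75, standard error 0.14, 6.72-fold). CG30076, on 2R, lay between 7.63 and 8.38 in the het 2 side, against 5.04 to 5.82 in the null 4 side (2.55, standard error 0.24). No function is given here for these 4 genes, which carry CG numbers only. The last of the 8 was GstE7, a glutathione S-transferase gene on 2R, with 8.87 to 9.96 in the het 2 side, against 6.77 to 7.76 in the null 4 side (2.23, standard error 0.35).

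By the labels the differences of these 8 genes were smaller, as they must be by arithmetic at any probe set that parts the sides. The difference of null minus het was 2.18 for Cyp4p2, 2.00 for Ror, 1.92 for CG8160, 1.38 for CG14937, 1.21 for CG30076, 1.15 for GstE7, -0.55 for CG34007 and -1.74 for CG12674. At all 116 probe sets that parted the sides, null 4 was the outermost array of its label, and so was het 2 of its own, which the call itself requires. Of the 116, 12 had label means at least 2-fold apart.

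All 8 of these genes lie on chromosome 2, 4 on 2L and 4 on 2R. Of the 101 parting probe sets with 1 gene placed on the genome, 61 (60.4%) were on chromosome 2, which holds 38.4% of the 13549 placed probe sets. The share of probe sets that parted the sides was 1.30% on 2L and 1.06% on 2R, against 0.600% on 3L, 0.528% on 3R and 0.274% on X. On chromosome 4, 0 of 82 did. The probe sets lower in the het 2 side numbered 11 on chromosome 2, 4 on chromosome 3 and 0 on X. With at least 0.5 between the nearest arrays, 25 of 31 placed probe sets were on chromosome 2. Among placed probe sets off chromosome 2 the widest separation was 0.89 on the log2 scale, for CG6628 on 3L, and on X it was 0.44, for CG15772. Genes close together on a chromosome are not independent of each other, and no test was made of these shares. For P30 against P6, 49 of 136 placed probe sets (36.0%) were on chromosome 2 and 35 on X.

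**Figure D2:**
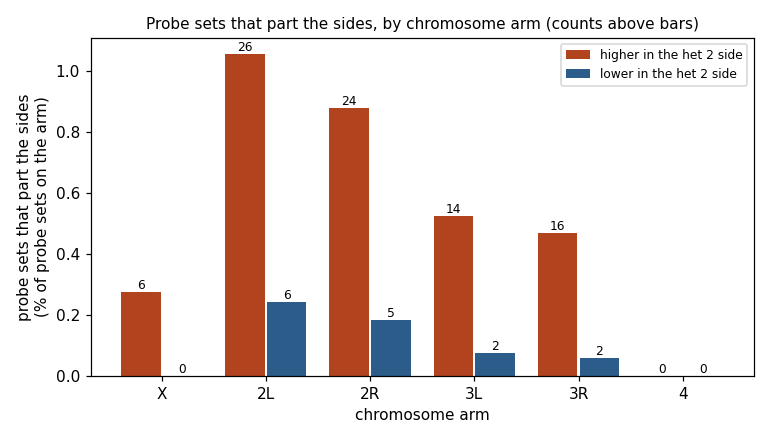
Percent of the probe sets on each chromosome arm (y axis) that part the sides, by arm (x axis), with the counts above the bars. Red bars are probe sets higher and blue bars those lower in the het 2 side; the 26 and 24 higher on 2L and 2R are the tallest bars.

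The parting genes were spread along both arms of chromosome 2. Measured genes were ranked by their order along each arm. Of 99 placed genes with a parting probe set, 20 lay within 5 places of another, in 8 groups, 6 of them on chromosome 2. The 5-gene group was of GstE3, GstE5, GstE6, GstE7 and GstE9 on 2R. Neighbouring pairs included Cyp4p2 with Cyp4p1 and CG8160 with CG8157 on 2R, all higher in the het 2 side. At another pair, on 2L, neighbours went opposite ways, CG12674 lower and CG4259 higher (difference of 1.53, standard error 0.26).

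**Figure D3:**
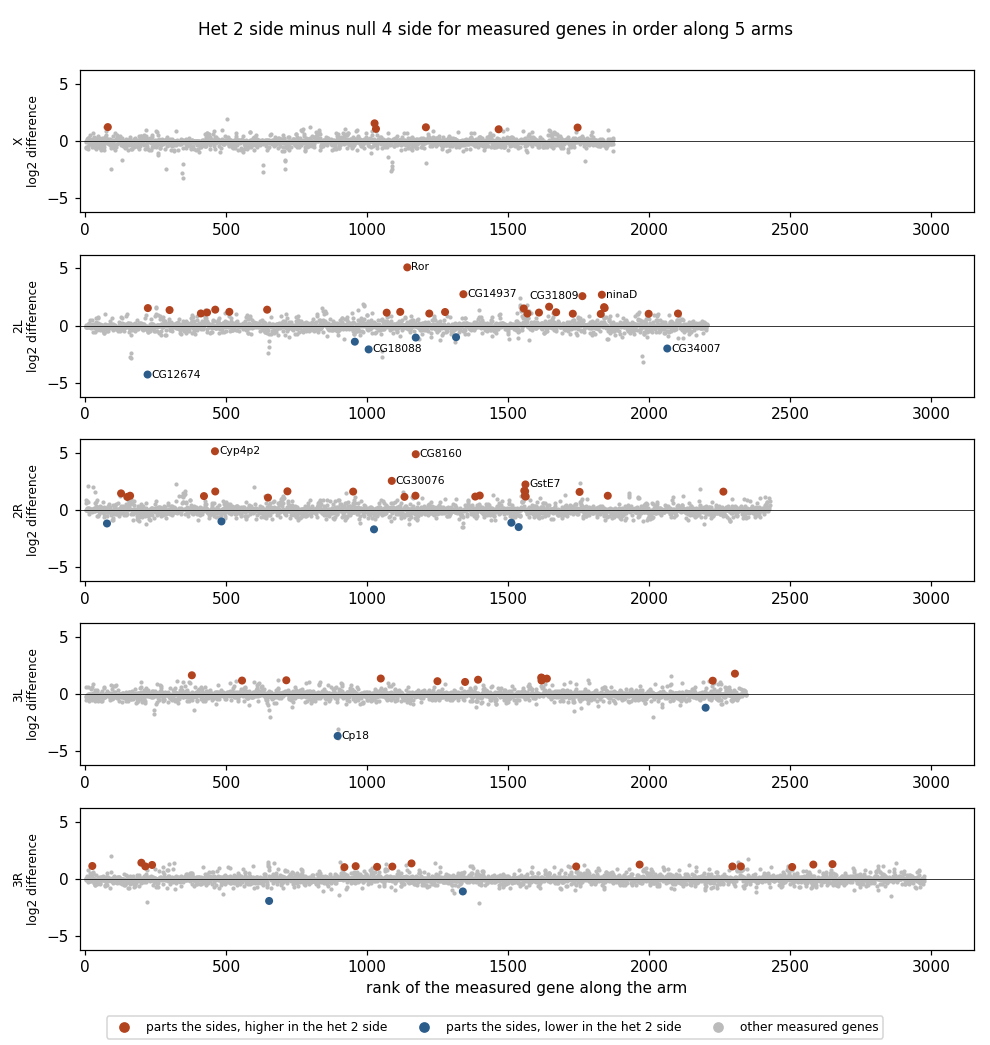
Difference of side means on the log2 scale, het 2 side minus null 4 side (y axis), for measured genes by rank along 5 chromosome arms (x axis). Red and blue points are genes with a probe set that parts the sides, grey points all other measured genes, and names mark differences of at least 2; the points beyond 2.5 in either direction that part the sides are on 2L and 2R except Cp18 on 3L.

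The neighbours of the widest separations differed in size. Cyp4p1 had 8.92, 7.78, 9.38 and 7.57 in het 2 and null 1 to 3, against 7.53, 6.47, 6.26 and 6.92 in null 4, het 1, het 3 and het 4, a difference of 1.62 (standard error 0.52) with the nearest arrays 0.03 apart. The sides overlapped for Cyp4p3 of the same family, with 5.09 to 7.20 in the het 2 side, against 5.14 to 6.82 in the null 4 side (difference of -0.03). CG8157 differed by 1.25 (standard error 0.38).

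The GstE genes encode epsilon class glutathione S-transferases, enzymes that conjugate glutathione to toxic compounds. As a family chosen after its values were seen, 13 genes were measured by 14 probe sets. Of the 14, 12 were higher and 2 lower in the het 2 side (11 and 3 with median centring or cyclic loess). The sides parted at 7 probe sets of 6 genes, each higher in the het 2 side, against 0.485% of all probe sets in that direction. The median difference of the 14 was 0.97, against 0.0028 over all probe sets. GstE6 had 12.36, 11.98, 12.24 and 11.72 in het 2 and null 1 to 3, against 10.84 in null 4 and 10.58, 10.19 and 10.16 in het 1, het 3 and het 4 (difference of 1.63, standard error 0.22). GstE3 differed by 1.68 (standard error 0.34), GstE5 by 1.24 (0.39) and GstE9 by 1.17 (0.29) and 1.15 (0.27) at its 2 probe sets. GstE14, which acts in ecdysteroid synthesis and stands apart from the others on the arm, differed by 1.61 (standard error 0.31). The sides overlapped for GstE1, GstE2, GstE4, GstE10, GstE11, GstE12 and GstE13.

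**Figure D4:**
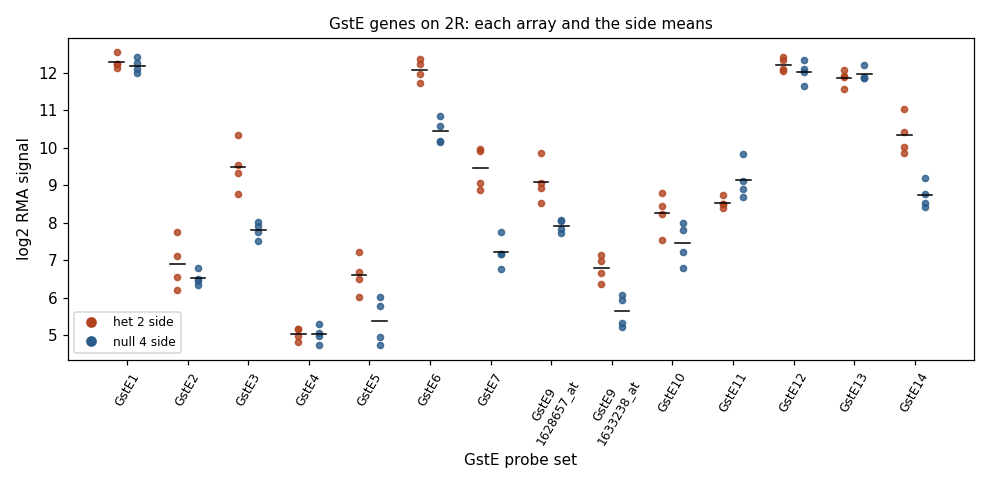
Log2 RMA signal (y axis) of the 14 GstE probe sets (x axis) in each array, het 2 side in red and null 4 side in blue, with lines at the side means (n = 4 each). The sides do not overlap at 7 of them, against 4.09% of all probe sets, and GstE7 has the widest separation. GstE1, GstE4, GstE12 and GstE13 have almost equal means.

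Other large differences had wider spread within a side. ninaD, a scavenger receptor gene on 2L needed for carotenoid uptake, had 10.12, 9.70, 11.63 and 10.11 in het 2 and null 1 to 3, against 7.51 in null 4 and 8.88, 6.67 and 7.68 in het 1, het 3 and het 4 (difference of 2.70, standard error 0.62). CG31809, also on 2L, differed by 2.58 (0.70), with null 3 at 6.58 and null 4 at 6.33. The probe set 1626611_at, for which the annotation names no gene, had 8.99, 5.07, 8.27 and 7.03 in the het 2 side, against 3.91 to 4.09 in the null 4 side (difference of 3.34, standard error 0.86). Its low side was even and its high side was not. On 3L, CG13239 differed by 1.81 (0.53), and 1625740_at, with no gene named, by 1.71 (0.44).

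Among genes lower in the het 2 side, EcR, the ecdysone receptor gene on 2R, had 7.04, 7.39, 6.64 and 7.16 in het 2 and null 1 to 3, against 7.96 in null 4 and 8.39, 8.24 and 8.37 in het 1, het 3 and het 4 (difference of -1.18, standard error 0.19). It was picked for mention after its values were seen. St4, a sulfotransferase gene on 2R, differed by -1.69 (standard error 0.48), Naglu, a lysosomal glucosaminidase gene on 2L, by -1.40 (0.60), CG18088 on 2L by -2.08 (1.09) and CG42857 on 3R by -1.95 (0.55). For Naglu and CG18088 the nearest arrays of the sides were under 0.1 apart, and null 4 held the highest CG18088 signal, 9.77. Without null 4 the difference of CG18088 was -1.04, and without het 2 that of Naglu was -0.92. Of the 116 probe sets, 13 have no gene named, 4 higher and 9 lower, and 2 name several genes. The largest differences among the lower unnamed ones were those of 1629125_at (-2.39, standard error 1.04), 1640955_s_at (-2.11, 0.52), 1624819_s_at (-1.55, 0.17) and 1624631_x_at (-1.27, 0.19).

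Ote, the gene the mutations hit, was among the 25 lower probe sets. Its log2 signal was 7.27 in het 2, 7.58 in null 1, 7.48 in null 2 and 8.56 in null 3, against 8.66 in null 4, 9.26 in het 1, 9.66 in het 3 and 9.29 in het 4. The means were 7.72 ± 0.57 in the het 2 side and 9.22 ± 0.41 in the null 4 side (SD, n = 4 each), 2.82-fold apart. The nearest arrays were null 3 and null 4, both labelled null and P6, at 0.10 from each other, so Ote parted the sides but did not set null 4 clearly apart from null 3. The 3 measured genes on either side of Ote did not part the sides, a call met by 0.485% of all probe sets higher and 0.133% lower. These neighbours were CG14500, CG30114, fj, pen-2, sbb and CG14502, with differences between -0.50 and 0.07.

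lok, the gene of Chk2 on 2L, lay at 11.34 ± 0.20 in the het 2 side and 11.54 ± 0.22 in the null 4 side (SD, n = 4 each), and the sides overlapped. All 4 genotypes carry 1 mutant copy of it. Of its 6 nearest measured genes, AANATL3, sNPF, barr, vls, bwa and CG10730, none parted the sides. Over all probe sets 0.485% did so higher and 0.133% lower.

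CyO is recognized in crosses by visible markers, the dominant wing mutation Curly in Duox and recessive mutations in dp, pr and cn. Of these genes 3 were measured, and none parted the sides by more than the size limit under any scaling. In the values as normalized by the authors, 0.485% of all probe sets met that call higher and 0.133% lower. pr, a gene of eye pigment synthesis on 2L, had 12.54, 12.30, 12.35 and 12.04 in het 2 and null 1 to 3, against 12.13 in null 4 and 11.95, 11.50 and 11.82 in het 1, het 3 and het 4 (difference of 0.46, standard error 0.17). Only null 3 lay below an array of the null 4 side, by 0.09, and after cyclic loess the sides of pr did not overlap. Duox, a dual oxidase gene, differed by 0.07 (0.40), and cn, a kynurenine monooxygenase gene, by 0.13 (0.11) at a mean signal of 4.49 in the het 2 side and 4.36 in the null 4 side. That level of cn is not shown to be above background. A visible marker need not change the RNA level of its gene, so these values do not tell which side carried CyO.

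The place of het 2 and null 4 was also described at probe sets chosen without their values. At 134 probe sets null 1, 2 and 3 did not overlap with het 1, 3 and 4 and had means at least 2-fold apart. The place of an array was set to 0 at the mean of the 3 het and to 1 at the mean of the 3 null arrays. Het 2 was nearer the null mean at 100 of the 134 (74.6%), with a median place of 0.98, and null 4 was nearer the het mean at 114 (85.1%), with a median place of 0.08. Both held at 85. The decision to set these 2 arrays aside had come from the data, so this is no test either. The chk2 backgrounds lean the same way, since het 2 is P30 and null 4 is P6, while null 1 to 3 hold 2 P30 arrays and het 1, 3 and 4 hold 1. The part of the background in these places was not tested.

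At 12 of the 134 the 6 arrays were at least 2-fold apart between the labels, and 10 of these 12 were on chromosome 2. At all 10, het 2 lay nearer the null and null 4 nearer the het mean. The others were 1624819_s_at, with no gene named, where the places were 0.70 for het 2 and 0.19 for null 4, and regucalcin on X, a calcium-binding protein gene, where het 2 lay nearer the het mean at 0.23. Among the 10 on chromosome 2 are the 8 genes already chosen for sides at least 2-fold apart. That choice largely set the places of het 2 and null 4 at them, so no contrast between chromosomes is drawn. Over the 76 chromosome 2 probe sets het 2 lay nearer null at 73.7% and null 4 nearer het at 82.9%, and over the 45 on other chromosomes at 68.9% and 84.4%.

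**Figure D5:**
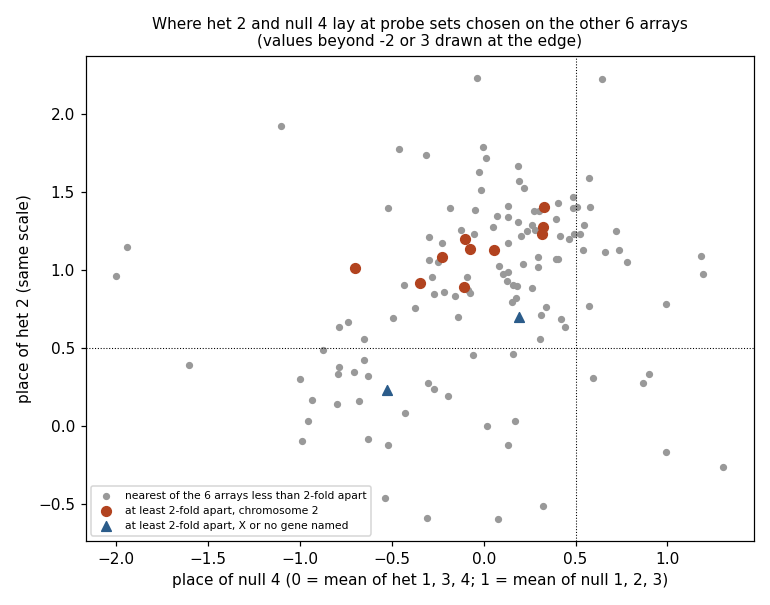
Place of het 2 (y axis) and of null 4 (x axis) at 134 probe sets chosen on the other 6 arrays, where 0 is the mean of het 1, 3 and 4 and 1 that of null 1, 2 and 3; dotted lines mark the midpoint and values beyond the axes are drawn at the edge. All 10 red points, chromosome 2 probe sets with the 6 arrays at least 2-fold apart, lie above the midpoint for het 2 and below it for null 4. The 8 genes already chosen for sides at least 2-fold apart are among them.

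Because the sides hold unequal numbers of the backgrounds, each difference was also taken within them. In P30 it rests on het 2, null 1 and null 2 against het 1, and in P6 on null 3 against null 4, het 3 and het 4. All 116 had the same sign in both, which the call requires. The difference was at least 2-fold in P30 at 96 of the 116, in P6 at 54 and in both at 44. With the background as a block, 81 of the 116 still differed at least 2-fold. Over all probe sets 73 higher and 20 lower met the call with that block, some of them outside the 116. The 8 widely separated genes must differ at least 2-fold in both backgrounds, since they were chosen by the distance between their nearest arrays. Their differences were 5.66 in P30 and 4.47 in P6 for Cyp4p2, 5.40 and 4.63 for Ror, and 5.24 and 4.19 for CG8160. They were 2.65 and 2.81 for CG14937, 2.57 and 2.38 for CG30076, and 2.48 and 1.63 for GstE7. For CG34007 they were -1.82 and -2.11, and for CG12674 -4.62 and -4.11. For Cyp4p2 and CG8160 the value was more than 1 larger in P30. Ote differed by -1.82 in P30 and by -0.64 in P6.

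The counts depended on single arrays. With null 3 left out 350 probe sets parted the sides, 21 of them with nearest arrays at least 2-fold apart, and null 3 itself lay nearer its own side at 25.4% of them. With null 1 left out there were 221 and 13, and null 1 lay nearer its own side at 48.4%. With het 4 left out there were 246 and 24, and het 4 lay nearer its own side at 48.8%. The corresponding shares were 69.0% for het 2, 85.4% for null 2, 82.4% for het 1, 78.8% for het 3 and 87.9% for null 4. Across the 18769 probe sets of the table the most correlated array was of the same side for 4 arrays (het 2 with null 1, null 2 with het 2, null 4 with het 1 and het 3 with het 4) and of the other side for the other 4 (null 1 with het 1, null 3 with het 3, het 1 with null 1 and het 4 with null 1). Across all probe sets het 2, null 1 and null 3 were on average less correlated with their own side than with the other. The mean correlations were 0.973 and 0.974 for het 2, 0.977 and 0.983 for null 1, and 0.968 and 0.977 for null 3. The remaining arrays were on average more correlated with their own side. Over chromosome 2 the mean correlation was 0.973 between arrays of a side and 0.969 between sides, and over other chromosomes 0.973 and 0.972.

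Among genes with more than 1 probe set, the others did not always repeat the difference. Of 99 genes with a parting probe set, 9 had further ones, and 2 of them, GstE9 and Hsc70-1, parted at 2 probe sets. Of the 15 other probe sets, 8 had the same sign and 1 did not overlap. Several of the 15 had mean signals under 5 in both sides, a level not shown to be above background. Another probe set of regucalcin differed by 0.76 and another of smp-30 by 0.90, against 1.57 and 1.34 at their parting probe sets. Another of CG5953 went the opposite way, by -0.76, against 1.04. For Gpdh1, glycerol-3-phosphate dehydrogenase on 2L, 1 probe set differed by 1.39 and another by 1.03, while the brighter 2 differed by 0.16 and -0.01. The 8 widely separated genes had 1 probe set each. A different sequence under the probes and a different amount of RNA cannot be told apart in these summarized signals.

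Markers of ovarian and other tissues also differed in level between the arrays. In bulk samples fewer cells of a type and less RNA per cell cannot be told apart. All 19 measured follicle cell and eggshell genes were lower in the het 2 side by their means, with a median difference of -1.76. By the labels, null minus het, the median of this list was 0.16. Of the 19, 1 parted the sides, against 0.133% of all probe sets in that direction. It was the chorion gene Cp18 on 3L, which did not part them after cyclic loess. Cp18 had 5.23, 5.41, 5.89 and 5.47 in het 2 and null 1 to 3, against 12.63 in null 4 and 7.95, 10.05 and 5.97 in het 1, het 3 and het 4. The summed linear signal of the list was 13921 to 48328 in the het 2 side, against 32820 to 97415 in the null 4 side. Late egg chambers make chorion, and null 4 had the highest list mean of all 8 arrays, 11.94, whereas het 2 had the lowest, 7.35. The part of this difference in the other results was not tested.

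All 13 measured muscle genes had higher means in the het 2 side (median 0.40, summed signal 33413 to 46758, against 26012 to 36142 in the null 4 side). Of the 13, only TpnC73F, a troponin C gene, did not overlap (difference of 0.44), against 4.09% of all probe sets. Of 26 midgut serine proteases 21 were higher (median 0.63), with sums of 1311 to 18766, against 1548 to 5300, and of 20 other midgut genes 18 were higher (median 0.95), with sums of 1633 to 15661, against 2326 to 4054 in the null 4 side. By the labels, null minus het, the medians were 0.05 for muscle, 0.76 for the midgut proteases and 0.82 for the other midgut genes. No midgut gene parted the sides. Over all probe sets 0.485% did so higher and 0.133% lower, so 0 called members of a short list is near that share. Fat body genes were higher in 5 of 7 (median 0.52, sums of 5863 to 10041, against 4144 to 8608), hemocyte genes in 9 of 12 (0.16, sums of 5251 to 7198, against 3873 to 6464), glue genes in 2 of 7 (-0.07, sums of 172 to 5395, against 144 to 9550) and male accessory gland genes in 4 of 13 (-0.59, sums of 4655 to 6045, against 5122 to 8172), and none of these parted the sides. Some of these shifts rested on single arrays. The mean log2 signal of the accessory gland list was 8.23 in het 3, against 4.87 to 5.28 in the other 3 arrays of that side, and without het 3 its median difference was 0.21. For the other midgut genes only null 2 (8.33) and null 3 (7.40) stood high, while het 2 and null 1 (5.32) did not, and without null 2 the median was 0.39. Without null 2, 13 of the 26 midgut proteases were higher. The glue genes stood high in null 1 (8.81) and het 1 (9.48), and their median was -1.27 without null 1 and 1.08 without het 1. Of 15 germline genes 1 was higher, and 4 after cyclic loess (median -0.40, sums of 30129 to 35389, against 32366 to 40453). Their part in the differences was not tested.

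Lists of the processes the study is about shifted in mean without wide separation. Of 10 measured lamina and LEM domain genes 9 were lower in the het 2 side (median -0.40, against 0.0028 over all probe sets). Sides without overlap, found at 4.09% of all probe sets, were those of Ote and kuk. The gene kuk, which encodes the nuclear envelope protein Kugelkern, differed by -0.59 (standard error 0.15). Of 20 DNA damage response genes 17 were lower (15 after cyclic loess and 19 after median centring, median -0.27), and 1 of the 20 did not overlap, mus81, a structure-specific nuclease gene (-0.78, standard error 0.27). All 13 measured cell cycle genes were lower (12 after cyclic loess, median -0.17), and 1 of the 13 did not overlap, Cdk4 (-0.21, standard error 0.07). After median centring the sides overlapped for both mus81 and Cdk4, and after cyclic loess for kuk. By the labels the medians of the 3 lists were -0.14, 0.10 and -0.13. No probe set was matched alone to Lam or LamC of the first list, or to spn-A, spn-B, spn-D or Rad1 of the second. In the cell cycle list CycA, Cdk1, stg, polo, aurA, dap, Wee1, Myt1, E2f1 and geminin were not matched either. The counts do not cover these genes. Of 39 detoxification genes 28 were higher (median 0.30), and 6 parted the sides with the het 2 side higher (against 0.485% of all probe sets), 5 of them GstE genes and the other the cytochrome P450 gene Cyp6a21. After cyclic loess 7 did, Cyp6a21 no longer and also the cytochrome P450 genes Cyp6a2 (1.33) and Cyp6a23 (1.67).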

How the data were processed

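RNA (50 ng per sample) was amplified, and 3.75 µg of cDNA per sample was fragmented to 85 bases on average and put on Affymetrix Drosophila 2.0 arrays, each sample on its own array. The deposited log2 values were made by the authors with RMA, with Expression Console 1.4.1 according to the submitters' processing notes, while the methods name the Transcriptome Analysis Console. Of 18952 probe sets, 183 whose ID starts with AFFX were left out, and no filter on dim probe sets was used. The platform annotation named 1 gene for 13647 probe sets, several for 402 and none for 4720. Symbols and chromosomes came from RefSeq (Release 6 plus ISO1 MT), with 13544 probe sets matched through the gene number and 6 through the symbol (97 were not matched and retain the annotation's name). In gene lists a gene was represented by its probe set with the highest mean over all arrays. Listed genes without a probe set matched alone to their symbol were not counted as measured. No positions are printed, as the files name no genome build. The number of arrays limits the precision.

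Side means were compared without a test. Null and het, as labelled, were tested by limma 3.58.1 under R 4.3.3 (4 arrays against 4, Benjamini-Hochberg adjusted p). They were also tested by a one-way ANOVA, which the methods name, here with that adjustment and without the 2-fold limit of the methods. Nothing in the labels says that replicates with the same number share a batch. The grouping and the gene lists were chosen with earlier results of these data known. Named genes are the 12 largest differences per direction among parting probe sets, all whose nearest arrays are at least 2-fold apart, Ote, lok, the CyO marker genes, 3 neighbours on each side of Ote and lok, up to 3 non-overlapping members per list, and the probe sets at the size limit. Genes named as neighbours, family members, list counts or members of groups along an arm were chosen after their values were seen. So were EcR, CG6628, Hsc70-1, Gpdh1, regucalcin, smp-30 and CG5953. Alternatives were other fold limits, no rule on overlap, median centring, cyclic loess, a filter at a mean log2 signal of 6, 1 probe set per gene, a block for the background or for the replicate number, and each array left out in turn (for the gene lists, chosen after seeing the data). The scripts were tested on simulated data.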

Additional observations from a re-analysis of the deposited data

Results flagged for a closer look

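Within a side of 4 arrays, 5 of 94 groups held an array that Dixon's gap test sets apart from the rest, and chance flags about 1 in 20. Het 4 had the highest Cyp4p2 signal of the null 4 side, 5.76, against 4.54 to 4.63 in the other 3. Null 3 had the lowest CG31809 signal of the het 2 side, 6.58, against 8.01 to 8.29, and the lowest CG42857 signal, 6.49, against 7.76 to 8.01. Null 4 had the highest lok signal of the null 4 side, 11.86, against 11.41 to 11.47. Het 1 had the lowest kuk signal of the null 4 side, 11.39, against 11.72 to 11.78.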

How the results depend on the processing

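Counts of probe sets that parted the sides (91 higher and 25 lower) were 178 and 158 at 1.5-fold, 21 and 8 at 3-fold and 248 and 119 without the rule on overlap. They were 86 and 30 with median centring, 111 and 21 with cyclic loess, and 15 lower with 1 probe set per gene. Leaving out an array gave 70 to 190 higher and 26 to 160 lower, fewer arrays making a call without overlap easier by construction. The largest counts came without null 3, 190 and 160, without het 4, 183 and 63, and without null 1, 164 and 57, and without het 1, 40 were lower. The share on chromosome 2 (60.4%) was 83.3% at 3-fold and 45.6 to 63.5% with an array left out, lowest without null 3. The 8 probe sets with sides at least 2-fold apart remained under median centring, where there were 9, and under cyclic loess, where there were 8. Leaving out an array gave 8 to 24, with 13 without null 1, 21 without null 3 and 24 without het 4. The 134 probe sets of the 6 arrays, whose alternatives were chosen after seeing the data, were 497 at 1.5-fold and 27 at 3-fold, with null 4 nearer het at 74.0% in the first and het 2 nearer null at 88.9% in the second.

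For the labels, the 2 higher and 2 lower probe sets were 12 and 11 at 1.5-fold, 2 and 0 at 3-fold, 162 and 35 without the rule on overlap, 1 higher with cyclic loess, and 1 and 0 with the filter on dim probe sets. Leaving out an array gave 3 to 52 higher and 3 to 28 lower. The count past an adjusted 0.05 was 0 under every alternative run, a one-way ANOVA with that adjustment included. Same-numbered null and het arrays deviated from their label means with correlations of -0.0018, 0.38, 0.54 and -0.10 for replicates 1 to 4, so the numbers were not taken as pairs. With the replicate block 71 probe sets were higher and 13 lower between the sides. Of 564 values of named genes under these alternatives 559 moved by less than 1 SD. Among called genes 0 changed sign, which the call itself requires except under median centring and cyclic loess. Signs were not scored for genes not called, and Duox ranged from -0.27 to 0.27 with an array left out. With the replicate block 1626611_at differed by 2.09, 1625740_at by 1.03 and GstE3 by 1.14. The causes of these shifts were not tested.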
